A study of Mus musculus with 40 samples.

Results

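Skeletal muscle transcripts were followed in retina and choroid of laser-treated mice through 10 genes chosen by name, *Acta1*, *Ckm*, *Myh2*, *Myh4*, *Myh13*, *Tnnt3*, *Tnnc2*, *Mylpf*, *Tcap* and *Actn3*. These are 10 of the 54307 genes listed, and each was found under 1 Ensembl identifier. They were picked as a measure of extraocular muscle, the muscle attached to the outside of the eyeball, that can remain on the tissue at dissection. How muscle was handled at dissection is not given in the sources used here. For choroid, the paper states that RNA was taken from the central tissue that carried the laser lesions.

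RNA was sequenced from choroid and retina of the same 20 adult C57BL/6J mice of both sexes, 3 days after 6 laser spots had been set in each eye to induce choroidal neovascularization (CNV). All mice carried floxed *Tgfbr2* alleles and received tamoxifen eye drops. In *Tgfbr2ΔEC* mice a CreERT2 recombinase driven by *Cdh5*, a gene of endothelial cells, deleted *Tgfbr2* after tamoxifen, and their Cre-negative littermates served as controls. PLX5622 (PLX), an inhibitor of the CSF1 receptor that depletes mononuclear phagocytes, was given in the diet from the first tamoxifen treatment to the end. This gave 4 groups of 5 mice in each tissue, control – PLX (mice 1 to 5), *Tgfbr2ΔEC* – PLX (mice 6 to 10), control + PLX (mice 11 to 15) and *Tgfbr2ΔEC* + PLX (mice 16 to 20).

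The deposited values are reads per gene scaled between libraries, called normalized counts here. They summed to between 24718469 and 25956180 in a choroid and between 22256892 and 24507335 in a retina. The steps between low values put 1 read at about 1 normalized count, so that 3 reads, used here as the floor below which a value cannot be told from 0, came to between 2.68 and 3.59 normalized counts in choroid and between 2.23 and 3.37 in retina. The floor covers counting error only. The floxed gene *Tgfbr2* lay between 8729 and 12801 normalized counts in the 20 choroids, and the ranges of both genotypes overlapped.

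Skeletal muscle contracts when calcium released from internal stores binds troponin on the thin filament and lets myosin heads pull on actin. Limb muscle fibres use a small set of myosin heavy chains, the slow form of *Myh7* and the fast forms of *Myh2* (type 2A), *Myh1* (type 2X) and *Myh4* (type 2B). Extraocular muscle is known for keeping further forms in the adult, among them *Myh13*, the superfast extraocular myosin, and the embryonic and perinatal forms *Myh3* and *Myh8*. A healthy choroid contains vascular smooth muscle and no striated fibres of its own.

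The genes fall into the parts of the contractile machine. *Acta1* (ENSMUSG00000031972, chromosome 8 of GRCm39, 124618501 to 124623661, minus strand) encodes the skeletal actin of the thin filament. *Myh2* (ENSMUSG00000033196, 67061838 to 67088989), *Myh4* (ENSMUSG00000057003, 67128336 to 67151274) and *Myh13* (ENSMUSG00000060180, 67212484 to 67262413) lie in a row on the plus strand of chromosome 11 and encode motor proteins of the thick filament. *Mylpf* (ENSMUSG00000030672, chromosome 7, 126807207 to 126813470, plus strand) encodes the fast regulatory light chain of myosin. *Tnnt3* (ENSMUSG00000061723, chromosome 7, 142048605 to 142070280, plus strand) and *Tnnc2* (ENSMUSG00000017300, chromosome 2, 164619075 to 164621887, minus strand) encode fast troponin T and fast troponin C, which carry the calcium signal. *Actn3* (ENSMUSG00000006457, chromosome 19, 4911215 to 4928529, minus strand) encodes the alpha-actinin of fast fibre Z-discs, and *Tcap* (ENSMUSG00000007877, chromosome 11, 98274637 to 98275779, plus strand) the titin cap at the same place. *Ckm* (ENSMUSG00000030399, chromosome 7, 19138701 to 19157965, plus strand) encodes muscle creatine kinase, which restores ATP from phosphocreatine.

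Promoters of such genes are classic places for E-boxes (CANNTG), the letters bound by MYOD1, MYOG and other myogenic factors. The RefSeq promoter table for GRCm39 held 7 of the 10 genes. The 250 bases before the RefSeq start are shown 5′ to 3′ for 4 of them, the genes of actin, creatine kinase, troponin C and the leading fast myosin, with E-boxes in capitals.

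*Acta1*, chr8:124621515-124621764, minus strand: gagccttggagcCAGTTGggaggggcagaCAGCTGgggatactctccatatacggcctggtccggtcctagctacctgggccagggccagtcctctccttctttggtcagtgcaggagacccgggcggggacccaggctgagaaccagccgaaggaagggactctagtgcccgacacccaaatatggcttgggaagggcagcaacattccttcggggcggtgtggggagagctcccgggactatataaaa

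*Ckm*, chr7:19144769-19145018, plus strand: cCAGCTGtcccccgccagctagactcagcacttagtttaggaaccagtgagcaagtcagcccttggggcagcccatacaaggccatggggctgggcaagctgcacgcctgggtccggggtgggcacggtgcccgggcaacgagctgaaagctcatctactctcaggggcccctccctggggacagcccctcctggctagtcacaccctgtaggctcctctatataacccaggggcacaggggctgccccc

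*Tnnc2*, chr2:164621655-164621904, minus strand: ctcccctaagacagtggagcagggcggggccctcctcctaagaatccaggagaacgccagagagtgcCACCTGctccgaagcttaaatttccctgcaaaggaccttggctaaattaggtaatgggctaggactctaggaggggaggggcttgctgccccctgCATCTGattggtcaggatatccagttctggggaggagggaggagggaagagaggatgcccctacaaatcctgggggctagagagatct

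*Myh4*, chr11:67128388-67128637, plus strand: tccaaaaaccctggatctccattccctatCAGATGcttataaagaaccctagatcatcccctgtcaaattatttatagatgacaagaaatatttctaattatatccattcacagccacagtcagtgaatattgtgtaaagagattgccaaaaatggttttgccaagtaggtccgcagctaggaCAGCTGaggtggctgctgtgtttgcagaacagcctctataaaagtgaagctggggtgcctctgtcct

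An E-box was found in 6 of the 7 promoters, with 2 matches each for *Acta1*, *Myh4*, *Myh13* and *Tnnc2*, 1 each for *Ckm* and *Mylpf* and 0 for *Myh2*. Of all 32851 promoters of the table cut to the same length, 66.2% held at least 1, so the share does not set these genes apart. The CArG box, the motif of serum response factor, was present in *Acta1* and *Myh4* and in 1.47% of all promoters. TATAAA was found in the same pair of genes and in 12.4% of all promoters, and a MEF2 motif in *Myh4* and in 2.92%. Motifs were searched on both strands, and a match shows letters only, not a bound factor. The *Acta1* start used lies 172 bases from that of the GENCODE transcript and the *Ckm* start 186 bases. For *Myh4* it lies 2785 bases upstream and for *Myh13* 5445 bases downstream, so for both genes the window belongs to another start than that of the GENCODE transcript.

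Muscle transcripts were plentiful in every choroid and rare in every retina. Together the 10 genes took 0.291% of a choroid library at the median, from 0.0649% in mouse 11 to 0.602% in mouse 4, and 0.000474% of a retina library, from 0.000276% to 0.000876%. For *Acta1*, the control – PLX choroids of mice 1 to 5 held 11857, 26730.4, 40961, 42865 and 11124 normalized counts. The retinas of the same mice held 23.3, 40.3, 42.5, 16.2 and 26.8 normalized counts of it. Mice 1 and 5 were the low choroids of this group, and neither stood out among the retinas.

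For *Myh4*, the same choroids held 7364, 19137, 31079.6, 39461 and 7858 normalized counts, and the retinas 0, 0.862, 5.01, 0 and 0.755. The lowest of the 20 choroids (4670.0, mouse 11) was far above the highest of the 20 retinas (8.16, mouse 12), and 12 retinas were listed at 0. *Myh2* was at 0 in 13 retinas, *Tnnt3* in 9 and *Tnnc2* in 4.

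**Figure D1:**
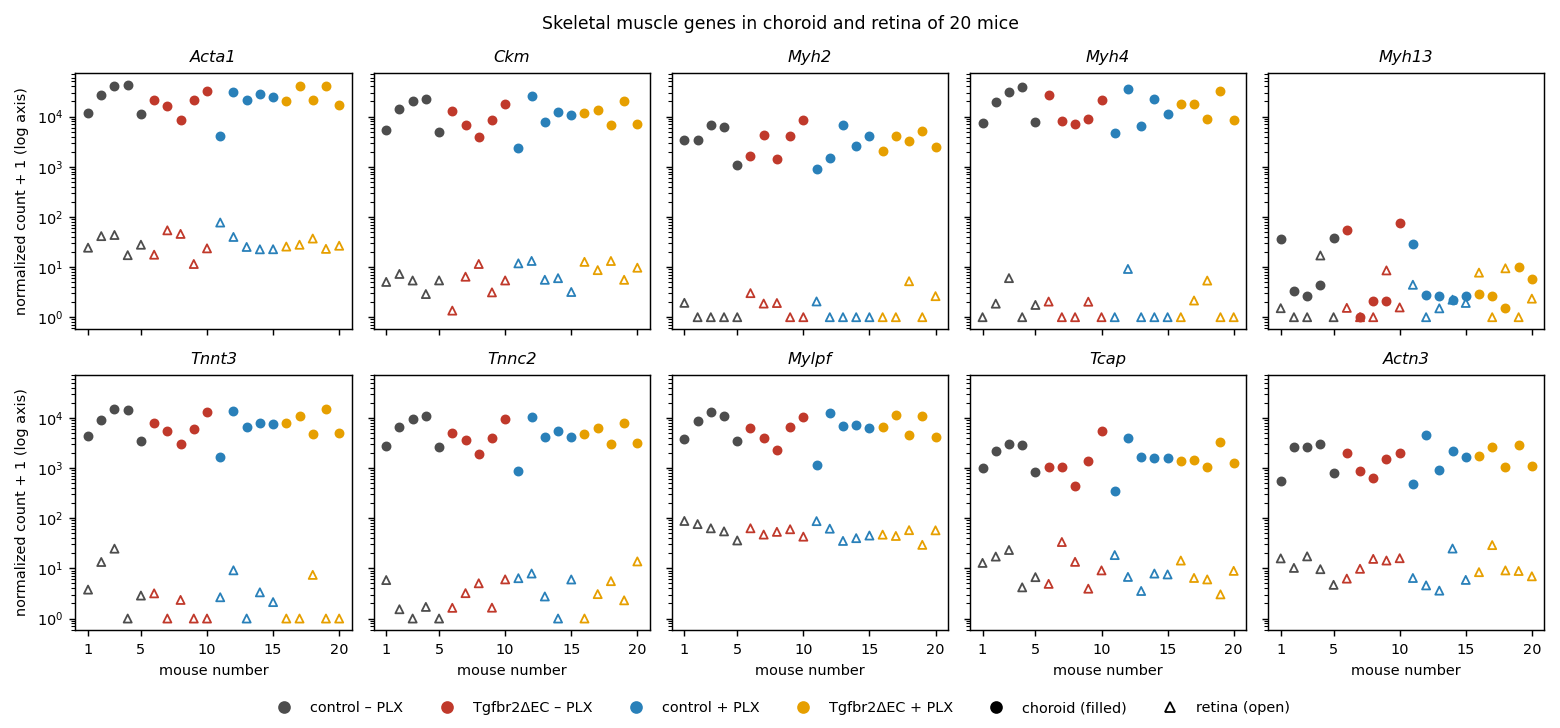
Each panel plots 1 gene, with the mouse number on the x axis and the normalized count + 1 on a log y axis; filled circles are choroids, open triangles retinas of the same mice, and colours the 4 groups. For *Acta1* the choroids lie between 4121 and 42865 and the retinas between 10.5 and 76.1, and only *Myh13* has choroids among the retinas.

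Between tissues, 10 of the 10 genes were higher in choroid by limma on log2(normalized count + 1) with Benjamini-Hochberg adjustment over 24317 genes (adjusted p ≤ 0.05). This test passed for 82.0% of all genes in either direction and for 40.8% of them as higher in choroid, so such a call is common between these tissues. Their median log2 difference was 10.06, against -0.01 over all genes tested. *Myh4* differed by 13.12 (SE 0.31, adjusted p = 1.23e-30), *Tnnt3* by 11.52 (SE 0.34), *Myh2* by 11.13 (SE 0.26), *Ckm* by 10.66 (SE 0.27) and *Tnnc2* by 10.61 (SE 0.32). These 5 stood at ranks 5, 11, 12, 18 and 21 of all 24317 genes by size of the difference towards choroid, on the scale with a pseudocount of 1.

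*Acta1* differed by 9.51 (SE 0.24, rank 51), *Tcap* by 7.44 (SE 0.31, rank 168), *Actn3* by 7.27 (SE 0.27, rank 195) and *Mylpf* by 6.86 (SE 0.22, rank 269). For these 9 genes every choroid was above every retina, which held for 18.6% of all genes tested. The differences of genes near the floor in retina depend on the added pseudocount, and so does the order of the genes. For *Myh4* the value was 13.84 with a pseudocount of 0.5 and 11.22 with 5. With 5, *Myh2* (9.13) and *Tnnc2* (9.25) came below *Acta1* (9.31).

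*Myh13*, the gene most particular to extraocular muscle, was the exception. Its log2 difference was 1.41 (SE 0.52, adjusted p = 0.0131 by limma), rank 5566, and its level was higher in the choroid than in the retina of the same mouse in 15 of 20 mice. In the control – PLX choroids of mice 1 to 5 it was listed at 35.3, 2.375, 1.63, 3.30 and 36.6 normalized counts, and in the *Tgfbr2ΔEC* – PLX choroids of mice 6 to 10 at 54.1, 0, 1.075, 1.15 and 73.7. The choroids with PLX held 28.3, 1.80, 1.65, 1.25 and 1.66 in controls (mice 11 to 15) and 1.84, 1.61, 0.494, 8.81 and 4.77 in *Tgfbr2ΔEC* mice (mice 16 to 20). Thus 5 choroids, those of mice 1, 5, 6, 10 and 11, held between 28.3 and 73.7 normalized counts, and 12 of the 20 were at or below the floor.

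Read as a check of the label, the skeletal muscle markers were present in every choroid, while the extraocular myosin *Myh13* was near the floor in most. *Myh3* and *Myh8*, the other forms named above for adult extraocular muscle, were above the floor in all 20 choroids. Their medians were 1893 and 347 normalized counts. The set is therefore called skeletal muscle genes here, and which muscle the RNA came from was not tested. In bulk RNA, fewer muscle fibres and less RNA per fibre cannot be told apart.

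In retina the few reads were unevenly spread over the genes. *Mylpf* was above the floor in all 20 retinas (28.4 to 87.1 normalized counts, median 53.1), and so was *Acta1* (10.5 to 76.1, median 25.1). These 2 genes made up 69.3% of the summed level of the 10 genes at the median retina (59.3% to 83.2%), against 38.5% at the median choroid (31.3% to 47.8%). *Actn3* was above the floor in 19 retinas, *Tcap* and *Ckm* in 16 each, *Tnnc2* in 8, *Myh13* in 5, *Tnnt3* in 4, *Myh4* in 3 and *Myh2* in 1.

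Levels are comparable between genes only per length, and the following are normalized counts per kilobase of coding sequence, as the mean ± SD over the 20 choroids. Reads also fall on untranslated parts, whose length differs between genes. The *Ckm* transcript has 4058 bases, of which 1143 are coding, and that of *Tnnt3* 1754 with 1014. For *Tcap* it is 948 with 501 and for *Myh4* 5954 with 5817. The order given here thus holds for coding length only, and that per transcript length was not computed. *Acta1* came first with 21320 ± 10005, ahead of *Mylpf* with 13910.5 ± 6915 in all 20 choroids. *Tnnc2* (11158 ± 6205) was below *Mylpf* in 19 choroids and above *Ckm* (10343 ± 5775) in 15, so that the order of *Tnnc2* and *Ckm* did not hold in every mouse. *Tnnt3* followed with 8018 ± 4161.

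Z-disc and motor genes came last in this order. *Tcap* was at 3681 ± 2563 and *Myh4* at 2945 ± 1878, with *Tcap* higher in 13 of 20 choroids. *Actn3* (663 ± 386.5) and *Myh2* (633 ± 367) did not differ in order, since each was the higher in 10 choroids. *Myh13* was at 2.25 ± 3.63. In retina *Mylpf* led with 105.5 ± 31.8 per kilobase, above *Acta1* (27.1 ± 13.5) in all 20 mice.

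The spread between mice was wide and mostly common to the genes. Over the 20 choroids, the SD on the log2 scale was between 0.85 and 0.99 for the 9 genes other than *Myh13*, against a median of 0.22 for the 10489 tested genes with a mean of at least 300 normalized counts. Within groups the median SD was 0.98 for the 10 genes and 0.20 for those 10489. The highest *Acta1* value was 10.4 times the lowest, and the highest *Tnnc2* value 12.6 times. Mouse 11 had the lowest choroid value for 9 of the 10 genes, and the highest values lay in mice 4 and 10 (3 genes each), 12 (2 genes), 3 and 19 (1 gene each).

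Pairs of genes moved together across choroids. Without *Myh2* and *Myh13*, Spearman's rho was between 0.74 and 0.99 over 28 pairs (median 0.91, n = 20 choroids, of which all genes of a library share depth and dissection). *Myh2* correlated less with the others (0.28 to 0.66 over 8 pairs, median 0.52), and the 9 pairs with *Myh13* lay between -0.12 and 0.14. Taken as deviations from group means, the same 28 pairs had a median of 0.91. In retina the median over the 36 pairs without *Myh13* was 0.19.

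Choroid and retina of the same mouse were compared over the 20 mice. For the genes above the floor in all 20 retinas, the level in choroid and that in the retina of the same mouse had a rho of -0.35 (*Acta1*) and -0.18 (*Mylpf*). The mean log2 level of the 10 genes had a rho of -0.32, but it includes genes such as *Myh2* and *Myh4*, which were above the floor in 1 and 3 retinas. Mouse 11, lowest in choroid, had the highest summed level of the 20 retinas (207.8 normalized counts), of which *Mylpf* gave 86.5 and *Acta1* 76.1.

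The make-up of the myosins differed between choroids. Among 7 skeletal myosin heavy chains, counted per kilobase of coding sequence, *Myh4* was the largest in 12 choroids (median share 44.1%) and *Myh1* in 8 (median 38.7%). *Myh2* took 9.20% at the median (2.96% to 16.5%) and the embryonic *Myh3* 5.70%. The shares of *Myh8* (0.742%), the slow *Myh7* (0.143%) and *Myh13* (0.0051%) were small at the median.

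Single choroids departed far from these medians. In mouse 6 *Myh4* took 73.7% of the myosins and *Myh3* 1.42%. In mouse 13 *Myh4* took 15.3% and *Myh3* 28.8%, with *Myh7* at 3.07%. *Myh3* was also high in mice 1 and 10, at 24.8% and 21.1%, and it was at 0.147% in mouse 12, where *Myh4* took 70.1%. The largest share of *Myh13* was 0.297%, in mouse 11. The myosin genes have near-identical stretches, and 24.1% of the 50-base words of the *Myh2* transcript, 19.1% of *Myh4* and 8.45% of *Myh13* also occur in other genes, mostly other myosins. The split of reads between them is thus an estimate, while the other 7 genes shared at most 1.94%.

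**Figure D2:**
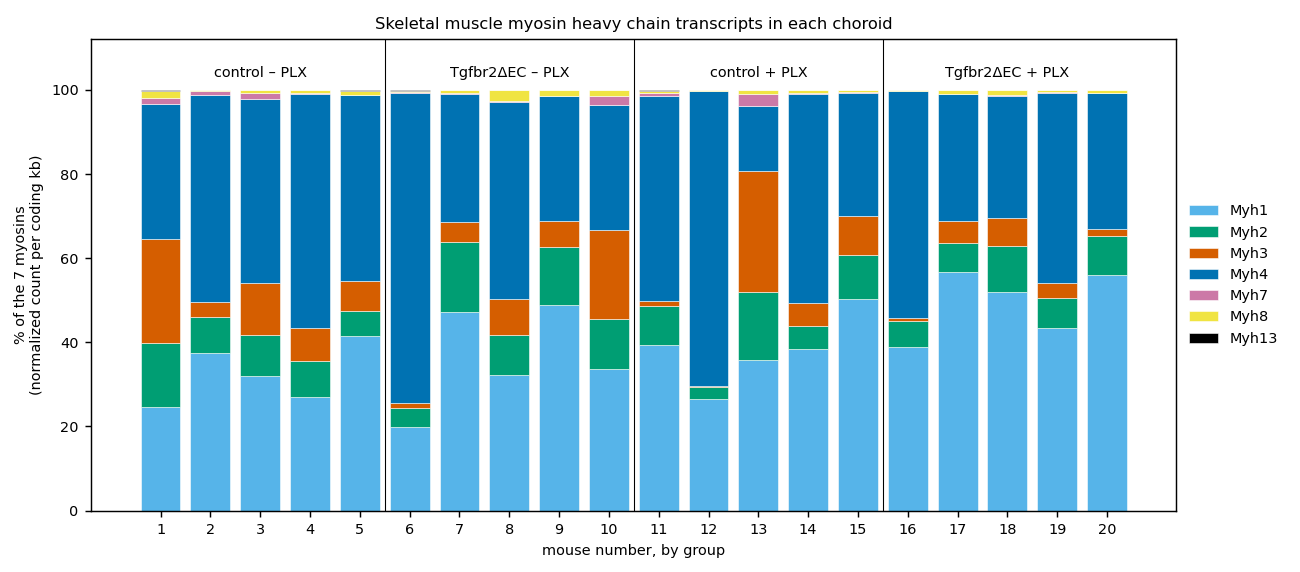
Stacked bars give, for each choroid on the x axis, the share in percent (y axis) of 7 skeletal myosin heavy chains in their summed normalized count per kilobase of coding sequence, with mice ordered by group. *Myh4* reaches 73.7% in mouse 6 and 15.3% in mouse 13, *Myh3* reaches 28.8% in mouse 13, and *Myh13* is too small to be seen.

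Further genes of striated muscle were read from lists. All 20 genes of a fast and shared sarcomere list were higher in choroid than in retina (adjusted p ≤ 0.05, limma; 40.8% of all genes). In normalized counts per kilobase of coding sequence, at the mean of 20 choroids, the highest levels of this list were those of *Tpm1* (20636), *Tpm2* (15985), *Myl1* (11286) and *Tnni2* (7380.0). On the same scale *Myh1* was at 2661 and *Ttn*, the gene of a giant spring protein, at 107. The summed level of the list had a rho of 0.89 with the mean log2 level of the 10 genes over the 20 choroids. Of 19 genes for excitation and energy supply, 18 were higher in choroid, and the sum had a rho of 0.93. Per kilobase the highest choroid means were those of the calcium buffer *Pvalb* (13355), the calcium pump *Atp2a1* (7441), myoglobin *Mb* (6943) and *Eno3* (3549), with *Pygm* at 1856. The exception was *Cacna1s*, the calcium channel of the T-tubule, with 962 normalized counts in choroid and 945 in retina. Over the choroids it still followed the 10 genes, with a rho of 0.92.

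Slow and cardiac genes were mixed. Of 16, 10 were higher in choroid and 1, *Nppa*, was lower, with a median log2 difference of 1.29. *Mybpc1*, a slow myosin binding protein, differed by 10.46 (SE 0.45), whereas *Myh6* (0.23, SE 0.58) and *Tnnt2* (0.10, SE 0.35) did not pass the test. *Myh6* was above the floor in only 4 choroids and 4 retinas. Of 4 other myosin genes, *Myh3* (9.12, SE 0.57), *Myh8* (7.79, SE 0.30) and *Myh14* (1.07, SE 0.09) were higher in choroid and *Myh7b* was lower (-4.02, SE 0.48). *Myh14* was high in both tissues, with means of 2215 normalized counts in choroid and 1071 in retina. It did not follow the 10 genes over the choroids (rho -0.11) and is not read as a muscle gene here.

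Genes of muscle precursors and of the neuromuscular junction were also present in choroid. Of 7 genes of the first list, 6 were higher than in retina, among them *Myog* (549 normalized counts in choroid) and *Myod1* (254). *Chodl* did not pass (0.19, SE 0.16). Of 8 junction genes, 7 were higher, and *Chrne*, the adult subunit of the acetylcholine receptor, did not pass (3.90 against 2.36 normalized counts). It was above the floor in only 6 of 20 choroids and 6 of 20 retinas, so its levels could hardly be compared. *Chrng*, the fetal counterpart of *Chrne*, was listed at 0 in all 20 retinas and at 116 ± 86.9 (SD, n = 20) in choroid.

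The other muscle lists had lower values of rho. The summed level of the slow and cardiac list had a rho of 0.70 with the mean log2 level of the 10 genes. That of the precursor list had 0.46, that of the 4 other myosin genes 0.44 and that of the junction list 0.12. Single genes of these lists had a median rho of 0.26, 0.20, 0.42 and 0.22 in the same order. The median over choroids was 4745 for *Tpm3* and 2712 for *Mybpc1*, against 9742 for the sum of the slow and cardiac list. For *Myh14* it was 2225, against 4372 for the sum of the 4 other myosin genes.

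Lists for other cell types present in or near the choroid had sums whose rho overlapped with those of the precursor, other myosin and junction lists. The sum of 9 smooth muscle genes ranged from 20906 to 38256 normalized counts over the choroids and had a rho of 0.27 with the mean log2 level of the 10 genes. Single smooth muscle genes had a median rho of 0.01. *Des*, which striated muscle also expresses, was the highest at 0.82. The sums of the other lists lay between -0.33 for retinal pigment epithelium and 0.40 for cornea and conjunctiva, with 0.20 for adipocyte, -0.18 for melanocyte, 0.04 for erythroid, 0.34 for myelin and 0.07 for phagocyte genes and about 0 for tendon and neural retina genes.

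**Figure D3:**
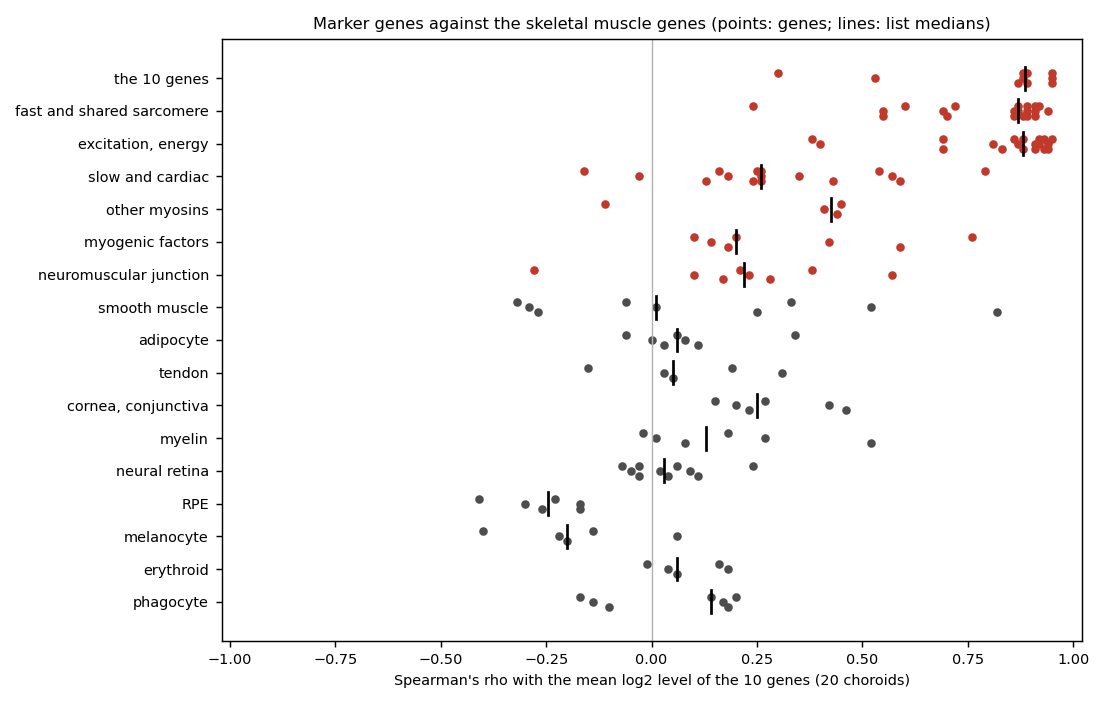
Each point is a gene, placed on the x axis by its Spearman's rho with the mean log2 level of the 10 skeletal muscle genes over 20 choroids, with lists in rows on the y axis and their medians as black lines; striated muscle lists are red and others grey. The fast sarcomere and excitation lists have medians of 0.87 and 0.88, the other striated muscle lists 0.20 to 0.42, smooth muscle 0.01 and cornea and conjunctiva 0.25. The row of other myosins, drawn in red, includes *Myh14*, which is not read as a muscle gene.

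Over 15271 protein-coding genes with a mean of at least 10 in choroid, the 10 genes themselves left out, the median rho with the 10 genes was -0.02, and 43 genes reached 0.9, of which 14 were on the muscle lists. The 10 most alike were *Hjv* (0.962), *Asb8* (0.959), *Smco1* (0.958), *Casq1* (0.952), *Eef1a2* (0.944), *Lrrc14b* (0.941), *Tnni2* (0.94), *Pygm* (0.94), *Pgam2* (0.938) and *Pgm1* (0.935). *Hjv* ranged from 92.7 to 1173 normalized counts over choroids with 3.19 at the median retina. *Asb8* (504 to 749, retina median 773) and *Pgm1* (1158 to 2124, retina median 1861) varied far less and were as high in retina.

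The deletion of *Tgfbr2* in endothelial cells was compared with controls within each diet. None of the 10 genes passed the test between genotypes in choroid. Without PLX, the percentage of the library taken by the 10 genes was 0.366 ± 0.218 (SD, n = 5) in controls and 0.275 ± 0.138 (n = 5) in *Tgfbr2ΔEC* mice, and with PLX 0.295 ± 0.169 and 0.335 ± 0.146 (n = 5 each).

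*Acta1* was at 21173, 16319, 8424, 21175 and 32239.5 normalized counts in the *Tgfbr2ΔEC* – PLX choroids of mice 6 to 10, all inside the range of the control – PLX choroids except mouse 8. Its log2 difference between genotypes without PLX was -0.33 (SE 0.51, 95% interval -1.38 to 0.73, adjusted p = 0.912 by limma). *Ckm* was at 5364, 13929, 20394.5, 22894 and 4861 in control – PLX and at 12922, 6874, 3988, 8594 and 17581 in *Tgfbr2ΔEC* – PLX choroids. Its log2 difference was -0.33 (SE 0.55), and mouse 8 alone lay outside the range of the controls.

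Without PLX, 0 of the 10 genes passed, against 0.00423% of all 23619 genes tested in choroid (1 gene; 411 without mouse 15 and 303 with these 10 libraries fitted alone, with 0 of the 10 muscle genes each time), and at an unadjusted p under 0.05 the counts were 0 of 10 and 2184 genes. The log2 differences lay between -0.44 for *Myh4* and -0.11 for *Myh2*, with a median of -0.33 (-0.05 without mouse 8) against 0.01 for all genes. Exact two-sided permutation tests of single genes (5 against 5, smallest possible p 0.00794) gave p between 0.468 and 0.881. Outside *Myh13*, the 95% intervals of single genes reached from -1.69 (*Tcap*) to 1.05 (*Myh2*), so differences of that size were not excluded.

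With PLX, *Acta1* was at 4121, 30608, 21216, 28098 and 24180.3 in control and at 20782, 40506, 21633, 40936 and 17313 in *Tgfbr2ΔEC* choroids. Mouse 11 was the low one among the controls, and mice 17 and 19 were the only choroids above all controls. The log2 difference was 0.57 (SE 0.51, 95% interval -0.49 to 1.62, adjusted p = 1.0 by limma). Again 0 of the 10 genes passed, with 0.00423% of all genes (1 gene), and 0 genes of the 10 and 889 of all were at an unadjusted p under 0.05. The median log2 difference was 0.28 with 9 of 10 estimates above 0, and it rested on mouse 11: without it the median was -0.13 and 3 of 10 estimates were above 0.

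**Figure D4:**
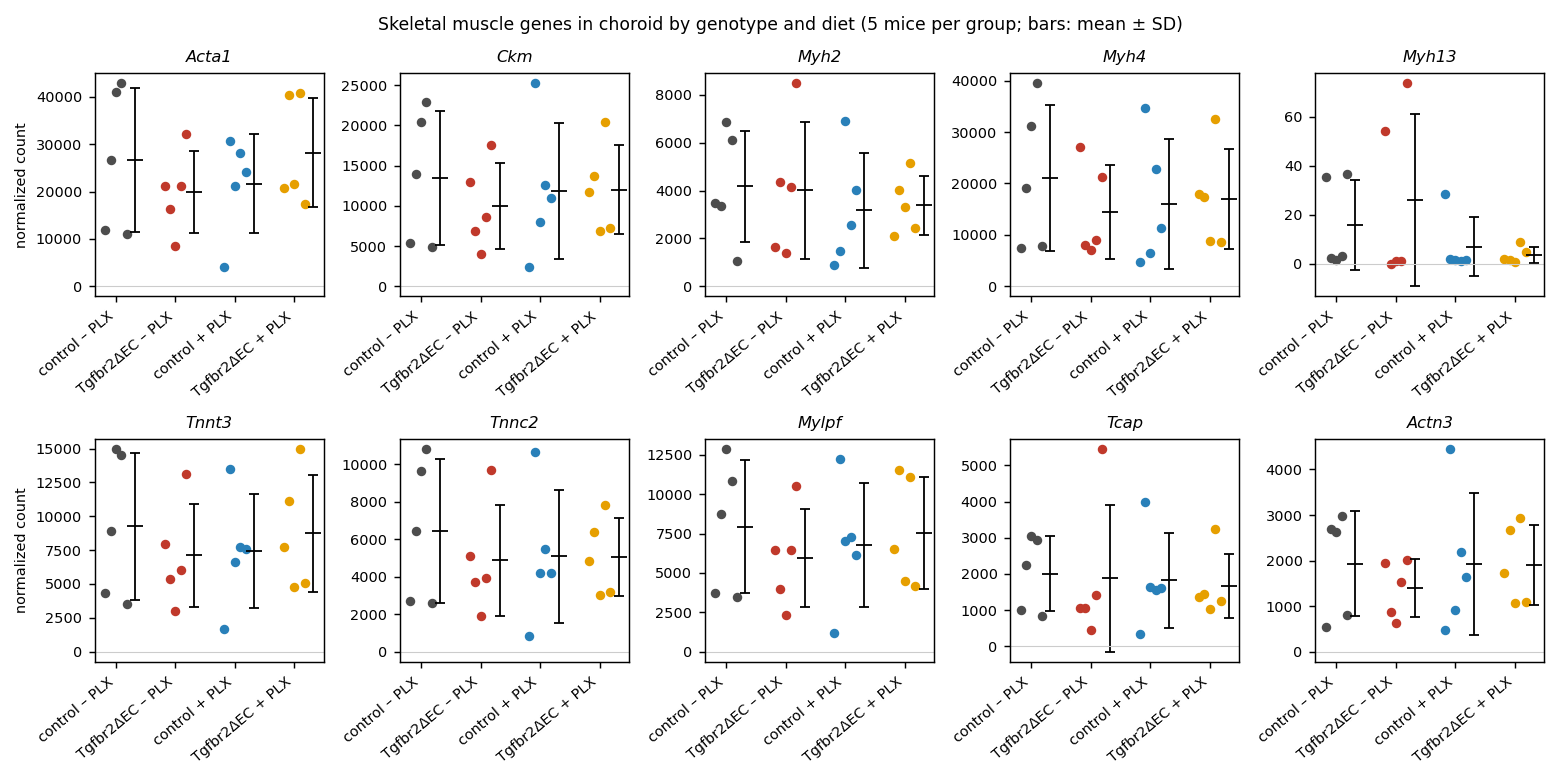
Each panel plots 1 gene as normalized counts on a linear y axis, with 1 point per choroid in the 4 groups on the x axis and the mean ± SD (n = 5) beside the points. The groups overlap for all genes; for *Acta1* the means are 26707 (control – PLX), 19866, 21645 (control + PLX) and 28234.

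Depletion of phagocytes with PLX was compared within each genotype. None of the 10 genes passed the test, whereas 6 of 7 phagocyte genes fell in both genotypes. *Myh4* was at 4670.0, 34669.7, 6546, 22905 and 11381.5 normalized counts in control + PLX choroids, as wide a range as without PLX. In *Tgfbr2ΔEC* mice it was at 27083.5, 8091, 6981, 8915 and 21296 without PLX and at 17869, 17447, 8775, 32470.3 and 8610.0 with PLX. The log2 differences with PLX were -0.46 (SE 0.58) in controls and 0.28 (SE 0.58) in *Tgfbr2ΔEC* mice.

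In controls 0 of the 10 genes passed for PLX, against 3.75% of all genes, with a median of -0.36 that became 0.15 without mouse 11. In *Tgfbr2ΔEC* mice 0 of 10 passed, against 4.06%, with a median of 0.30 that became 0.04 without mouse 8. At an unadjusted p under 0.05 there were 0 of the 10 in both, and 3249 and 3634 of all genes. The lowest adjusted p was 0.767 in controls and 0.704 in *Tgfbr2ΔEC* mice (limma), and the exact permutation p of single genes lay between 0.198 and 0.897 and between 0.175 and 1.0. The control groups enter both the genotype and the diet comparisons, so the signs of these medians are not independent of each other.

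*Myh2* spread widely within each group. It was at 3476, 3354, 6856, 6118 and 1078 normalized counts in control – PLX, and at 1643, 4364, 1413, 4147 and 8477 in *Tgfbr2ΔEC* – PLX choroids. With PLX it was at 888, 1467, 6912, 2554 and 4044 in controls and at 2084, 4014, 3314, 5137 and 2430.0 in *Tgfbr2ΔEC* mice. Its largest log2 difference in choroid was -0.50 (SE 0.56), for PLX in controls.

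The other genes kept to the same picture. *Tnnt3* was at 9254 ± 5425 in control – PLX, 7105 ± 3827 in *Tgfbr2ΔEC* – PLX, 7420.0 ± 4203 in control + PLX and 8741 ± 4340.0 in *Tgfbr2ΔEC* + PLX choroids (SD, n = 5 each). *Mylpf* was at 7935 ± 4224, 5950.0 ± 3088, 6770.0 ± 3935 and 7555 ± 3552 in the same order, and *Tnnc2* at 6440.0 ± 3822, 4864 ± 2939, 5077 ± 3552 and 5042 ± 2071. In each of these genes the SD of a group was larger than any difference between group means. *Tcap* was at 2009 ± 1045, 1881 ± 2031, 1821 ± 1319 and 1666 ± 895, and *Actn3* at 1930.0 ± 1153, 1399 ± 629.9, 1931 ± 1557 and 1902 ± 876.

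Whether the genotype effect depended on PLX was tested as an interaction. The estimates lay between 0.09 for *Myh13* and 0.89 for *Acta1* (median 0.61, SE 0.71 to 1.63), 0 of 10 passed, and over all genes 0.0% did, with 1552 at an unadjusted p under 0.05 and 0 of the 10. Without mouse 11 the median was 0.17, and without mouse 12 it was 0.96.

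Neural retina RNA also varied between these choroids. The sum of 10 neural retina genes in control – PLX choroids was 2690.0 to 26056 normalized counts, in *Tgfbr2ΔEC* – PLX 45478 to 132376, in control + PLX 2355 to 128070.3 and in *Tgfbr2ΔEC* + PLX 6372 to 20241. All 5 *Tgfbr2ΔEC* – PLX choroids were above all 5 control – PLX choroids in this sum, while 0 of the 10 single neural retina genes passed the test. With a neural retina score as covariate, the median log2 difference of the 10 muscle genes between genotypes without PLX was -0.73 in place of -0.33, for PLX in *Tgfbr2ΔEC* mice 0.62 in place of 0.30, and for the interaction 0.99 in place of 0.61, again with 0 of 10 passing.

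**Figure D5:**
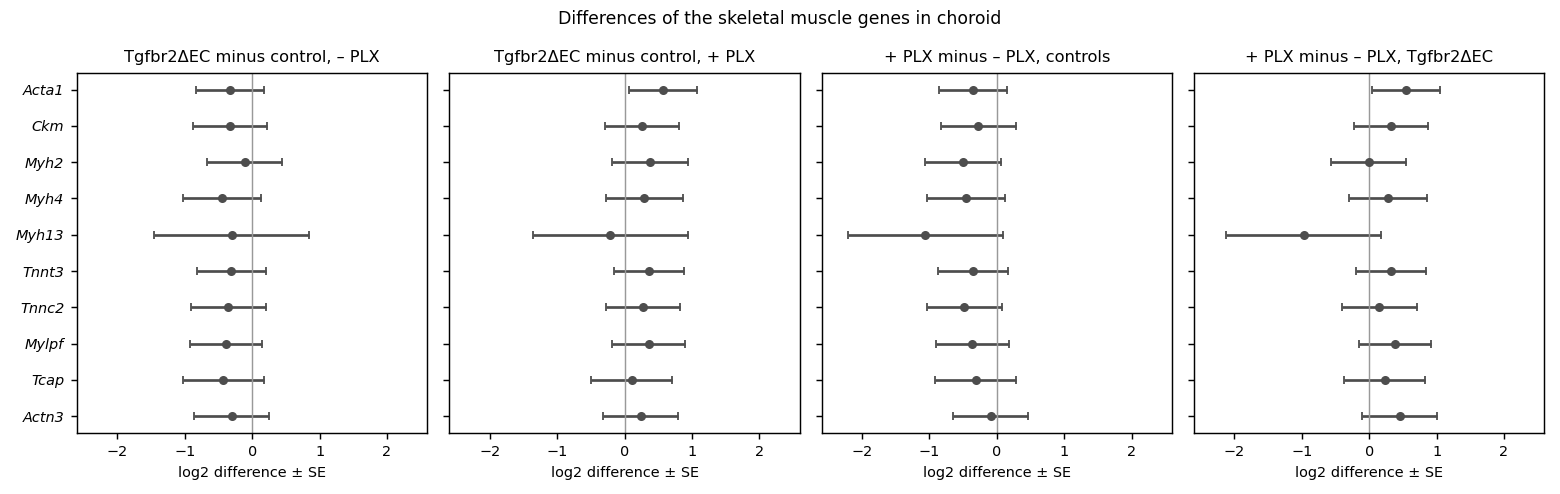
Points give the log2 difference in choroid (x axis, bars ± SE from limma, 4 groups in one fit) of the 10 genes (y axis) for the genotype without and with PLX and for PLX in controls and in *Tgfbr2ΔEC* mice. Estimates for *Acta1* are -0.33, 0.57, -0.35 and 0.54, and 0 of the 10 genes pass an adjusted p of 0.05 in any panel.

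In retina, 9 of the 10 genes were tested, since the mean of *Myh2* was below 1. None passed in any comparison, against 0.0% of all 23243 genes for the genotype in either diet, 0.736% for PLX in controls, 0.516% for PLX in *Tgfbr2ΔEC* mice and 0.0% for the interaction. At an unadjusted p under 0.05, *Tnnt3* was lower in *Tgfbr2ΔEC* – PLX than in control – PLX retinas (log2 difference -1.78, SE 0.79, adjusted p = 0.985 by limma), and *Ckm* was higher with PLX in *Tgfbr2ΔEC* mice (1.11, SE 0.51, adjusted p = 1.0). *Tnnt3* held 2.77, 12.4, 23.7, 0 and 1.87 normalized counts in the control and 2.175, 0, 1.35, 0 and 0 in the *Tgfbr2ΔEC* retinas, so that the difference rests on mice 2 and 3. At an unadjusted p under 0.05 there were 758 of all genes for the genotype without PLX, 629 with PLX, 1335 and 919 for PLX and 567 for the interaction. *Mylpf*, the most abundant of the 10 in retina, was at 62.6 ± 20.03, 52.4 ± 8.47, 53.0 ± 21.3 and 46.2 ± 11.6 (SD, n = 5 each) in control – PLX, *Tgfbr2ΔEC* – PLX, control + PLX and *Tgfbr2ΔEC* + PLX retinas.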

How the data were processed

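Polyadenylated RNA was sequenced from retina and choroid of 20 mice as stranded libraries, and the retina and choroid of a mouse share a number in the labels. The authors quantified reads with Salmon 1.10.1 against GRCm39 and normalized them with DESeq2 1.36.0, and the deposited signal per gene (normalized counts) is not whole. Whole reads were not recovered, so depth is approximate (20959034 to 30544580 reads per library) and no test on counts was run. GENCODE release 39 of GRCm39 gave symbols and positions for 53700 of 54307 genes, and all 146 other listed genes were found. All 40 columns were used.

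limma 3.58.1 (R 4.3.3, variance trend) was fitted on log2(normalized count + 1) over all genes with a mean of at least 1, with adjusted p ≤ 0.05 called. Both tissues entered one fit for choroid against retina, while genotype and diet were fitted in each tissue over its 4 groups, without covariates. The authors' covariates, sex and neuronal percentage, are not in the labels and were not used. Same-numbered retina and choroid come from the same animal (correlation of deviations from group means -0.158 to 0.289, median 0.126, and 12 of 20 retinas correlated best with their own choroid), so the mouse was tried as a block. Alternatives were pseudocounts of 0.5 and 5, a minimum mean of 10 or none, rescaling without muscle genes, robust variances, a sex score or a neural retina score as covariate, 10 libraries alone, and each mouse left out. The procedure was tested on simulated data. Values were computed with scipy 1.17.1, pandas 2.3.3 and numpy 2.4.6 in Python 3.11.15. The genes, lists and tests were chosen with earlier results of these data known. Named are the 10 genes, from each list up to 4 genes with the highest choroid mean or a defining role, the 10 protein-coding genes most alike over choroids, and *Tgfbr2*. *Des*, *Cacna1s*, *Nppa*, *Chodl*, *Chrne*, *Chrng*, *Myh6*, *Tnnt2*, *Mybpc1*, *Myl1* and *Pvalb* were named after their values were seen where this rule did not reach them. A single gene that this rule would name is not reported here. P-values measure the spread between mice.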

Additional observations from a re-analysis of the deposited data

Results flagged for a closer look

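Within a group of 5 mice, the gap between the most extreme mouse and its nearest neighbour was compared with the range of the group. In 15 of 88 groups the gap was above 0.71 of the range. Chance flags about 1 in 20 groups of continuous values, but of these 15 groups 12 were in retina, where most values are near the floor, and in 4 of them all other mice were at 0, which fixes the ratio at 1.0, so the number is not read against chance. *Myh2* reached 1.0 in control – PLX retinas (mouse 1, 0.934 normalized counts) and 1.0 in control + PLX retinas (mouse 11, 1.06), both below the floor of 3 reads (2.86 and 2.925). *Myh4* reached 0.828 in control – PLX (mouse 3, 5.01), 1.0 in control + PLX (mouse 12, 8.16) and 0.737 in *Tgfbr2ΔEC* + PLX retinas (mouse 18, 4.37). *Tnnt3* reached 0.714 in control + PLX (mouse 12, 8.14) and 1.0 in *Tgfbr2ΔEC* + PLX retinas (mouse 18, 6.42). Mice 12 and 18 were thus flagged for both genes in retina. Mouse 3 was also high for both, with 23.7 normalized counts of *Tnnt3*, the highest of the 20 retinas. *Tnnc2* reached 0.854 in control – PLX retinas (mouse 1, 4.84). *Actn3* reached 0.867 in control + PLX (mouse 14, 23.9) and 0.903 in *Tgfbr2ΔEC* + PLX retinas (mouse 17, 28.1). *Myh13* reached 0.968 in control – PLX retinas (mouse 4, 16) and 0.925 in *Tgfbr2ΔEC* – PLX retinas (mouse 9, 7.56). In choroid, *Myh13* reached 0.98 in control + PLX (mouse 11, 28.3), the mouse with the lowest values of the 9 other genes. *Tcap* reached 0.807 in *Tgfbr2ΔEC* – PLX (mouse 10, 5460.0) and 0.817 in *Tgfbr2ΔEC* + PLX choroids (mouse 19, 3243).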

How the results depend on the processing

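The counts of muscle genes passing the test (10 of 10 between tissues, 0 in each comparison of genotype or diet) were the same under every alternative run, in the 95 comparisons under other settings and the 220 with 1 mouse left out, except that with a minimum mean of 10 only 9 genes were tested between tissues and all 9 passed, and that in retina, where 9 were tested, 3 were tested with this minimum, 10 with none, 7 to 9 with 10 libraries alone and 8 or 9 with 1 mouse left out. With the mouse as replicate block, 10 of 10 passed between tissues and 19855 of all genes in place of 19930; within a tissue each mouse stands once, so no block could be made. Rescaling without muscle genes moved the median of all genes between tissues to -0.11 and that of the 10 genes to 9.97. Of 509 single estimates between tissues and in choroid under other settings 3 changed sign, none of them past the test's threshold: *Myh13* with a pseudocount of 5 for the genotype without PLX (0.0706) and for the interaction (-0.25), and *Myh2* with a neural retina score for PLX in *Tgfbr2ΔEC* mice (0.0539). In retina only the number of estimates above 0 was followed, which for PLX in controls went from 4 of 9 to 2 with the neural retina score. With 1 mouse left out, estimates in choroid that changed sign ranged for the genotype without PLX *Myh2* -0.54 to 0.19, *Myh13* -1.15 to 0.41; for the genotype with PLX *Ckm* -0.22 to 0.63, *Myh4* -0.0542 to 0.67, *Myh13* -0.57 to 0.49, *Tnnt3* -0.10 to 0.65, *Tnnc2* -0.27 to 0.64, *Mylpf* -0.19 to 0.65, *Tcap* -0.39 to 0.48, *Actn3* -0.17 to 0.64; for PLX in controls *Acta1* -0.61 to 0.18, *Ckm* -0.64 to 0.21, *Tnnt3* -0.64 to 0.12, *Tnnc2* -0.84 to 0.0633, *Mylpf* -0.66 to 0.19, *Tcap* -0.69 to 0.19, *Actn3* -0.49 to 0.32; for PLX in *Tgfbr2ΔEC* mice *Myh2* -0.31 to 0.34, *Tnnc2* -0.14 to 0.45, *Tcap* -0.16 to 0.75; for the interaction *Myh13* -0.62 to 0.94. The median log2 difference of the 10 genes with 1 mouse left out lay between -0.61 (without mouse 5) and -0.05 (mouse 8) for the genotype without PLX, -0.13 (mouse 11) and 0.64 (mouse 12) with PLX, -0.65 (mouse 12) and 0.15 (mouse 11) for PLX in controls, 0.04 (mouse 8) and 0.58 (mouse 10) for PLX in *Tgfbr2ΔEC* mice, and 0.17 (mouse 11) and 0.96 (mouse 12) for the interaction. The cause was not tested.

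Counts over all genes moved more. For the genotype without PLX in choroid, 1 gene passed, but 411 without mouse 15, 303 in the 10 libraries alone and 0 with a minimum mean of 10; for the genotype with PLX, 1 gene passed and 0 with a pseudocount of 5, a minimum mean of 10, either covariate or 10 libraries alone (range 0 to 1 with a mouse left out). For PLX in controls 885 became 572 in 10 libraries alone, for PLX in *Tgfbr2ΔEC* mice 958 became 534 with the neural retina score, and in control retinas 171 became 104 with a minimum mean of 10. In retina most of these genes lay near the floor, which limits comparisons there. Depth was similar in both tissues, at a median of about 23577838 reads in retina and 24748175 in choroid.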

Other observations

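Some muscle genes correlated more closely with each other than with the 10 genes over the choroids, and were singled out after their values had been seen. *Myog* and *Myod1*, factors of muscle differentiation, and *Chrng* and *Chrnd*, subunits of the acetylcholine receptor of muscle, correlated with each other at a rho between 0.86 and 0.99 (6 pairs, median 0.92, n = 20 choroids of shared depth), against a median of 0.32 (-0.39 to 0.99) over all 105 pairs of the 15 precursor and junction genes they were picked from, but only at 0.10 to 0.23 with the mean log2 level of the 10 genes. *Myog* was at 1529 normalized counts in mouse 17, 1119 in mouse 5 and 1052 in mouse 13, and at 61.9 in mouse 6, 103.5 in mouse 12 and 109 in mouse 11. Mouse 5 was thus among the lowest choroids for *Acta1* and among the highest for *Myog*, and mouse 12 the reverse for *Ckm*.

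*Myh3*, *Myh7*, *Myl2*, *Sln* and *Myh2*, genes of embryonic, slow or type 2A fibres, correlated with each other at a rho between 0.57 and 0.83 (10 pairs, median 0.68), against a median of 0.34 (-0.50 to 0.93) over the 190 pairs of the 20 slow, cardiac and other myosin list genes, which hold 3 of the 5. With the mean log2 level of the 10 genes their rho was 0.13 for *Myl2*, 0.26 for *Myh7*, 0.40 for *Sln*, 0.44 for *Myh3* and 0.53 for *Myh2*, which is itself 1 of the 10. *Myh3* was at 15084 normalized counts in mouse 10, 12357 in mouse 13, 8632 in mouse 3 and 5694 in mouse 1, against 72.8 in mouse 12 and 205 in mouse 16. *Myl2*, the slow regulatory light chain, was at 509, 434.5 and 452 in mice 10, 13 and 3 and below 5 in 7 choroids. These mice came from 3 of the 4 groups.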
